A study of Mus musculus with 4 samples.

Results

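Cadherins, claudins and desmosome proteins hold neighbouring cells together, and their genes were followed here in mouse embryonic stem cells that lack one of the enzymes of miRNA production. The members are the rows of the deposited mRNA table whose symbol begins with Cdh and a number, Pcdh, Cldn and a number, Dsg, Dsc and a number or Pkp and a number, together with Dsp, Jup and Epcam. There are 66 such rows among 13815. They comprise 9 cadherins, 10 rows of claudins and Epcam, 8 desmosome genes, 2 protocadherins outside the gene clusters, 14 rows of the alpha protocadherin cluster, 22 rows of the gamma cluster and 1 read-through transcript that spans both clusters.

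The Dgcr8 knockout cells (dgcr8-/-) lack the RNA-binding partner with which Drosha cuts the hairpin precursor out of the long primary miRNA. The Dicer knockout cells (dicer-/-) lack the enzyme that cuts that hairpin into the mature miRNA, and the WT cells carry neither deletion. All are labelled as strain V6.5 and grew in medium with serum and ESGRO, a leukaemia inhibitory factor preparation, and the labels do not describe the knockout alleles or the number of clones. Each of the 3 genotypes has 1 mRNA library and WT also has 1 small RNA library, so differences between genotypes carry no replicate check, and neither tests nor p-values are given.

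Cadherins bind their like on the next cell through calcium-dependent outer domains and are tied to actin inside the cell by catenins. Claudins form the sealing strands of tight junctions, and desmosomes couple desmosomal cadherins through plakoglobin, plakophilins and desmoplakin to intermediate filaments. E-cadherin holds mouse embryonic stem cells in compact colonies. A change from E-cadherin to N-cadherin is a usual mark of the epithelial-mesenchymal transition, in which epithelial cells lose their junctions.

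The libraries hold 11123498 counts for the Dgcr8 knockout, 12309100 for the Dicer knockout and 9931625 for WT. Levels are counts per 1000000 counts of the library (CPM), so that 1 CPM is 11.12, 12.31 and 9.93 counts in that order. A gene entered a comparison if either library held 1 CPM or more, and was called when it differed 2-fold or more on log2(CPM + 1), a scale that understates the change of low genes. For single genes the CPM ratio is given, and its exact 95% interval covers counting error only. CPM are not divided by transcript length, so levels are compared between libraries for 1 gene and not between genes. Dgcr8 had 20.9 CPM in the Dgcr8 knockout, 84.7 CPM in the Dicer knockout and 52.7 CPM in WT, and Dicer1 had 128, 20.1 and 79.9 CPM. Each targeted gene was thus lowest in the library labelled as its knockout, and neither was at 0. All 10 stem cell markers listed were present in every library, and they summed to 8007 CPM in the Dgcr8 knockout, 8504 CPM in the Dicer knockout and 11919 CPM in WT. Pou5f1, Sox2 and Nanog were within 2-fold of WT in both knockouts. In each knockout 3 of the 10 were called lower and 1 higher. Lower in both were Klf4 at 103, 76.9 and 430 CPM and Tdgf1 at 471, 421 and 1486 CPM in the same order. The remaining lower gene differed, with Dppa5a in the Dgcr8 knockout (2715, 4222 and 5564 CPM) and Zfp42 in the Dicer knockout (386, 95.1 and 488 CPM). Zfp42 was the only 1 of the 10 called between the knockouts, 4.06-fold higher in the Dgcr8 knockout (3.80 to 4.33).

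Outside the protocadherin clusters, 29 members could be followed one by one. In the Dgcr8 knockout over WT, 25 of them entered, 9 were called higher and 0 lower, where 14.3% of all 13223 genes were called higher and 8.02% lower. In the Dicer knockout over WT, 28 entered, 12 were called higher and 0 lower, against 16.0% and 9.70% of 13403 genes. In either direction, 22.3% and 25.7% of all genes were called in these comparisons, and with median-ratio scaling the share of higher genes among all calls of the Dgcr8 knockout was 53.6% instead of 64.1%. The median log2 ratios of these members were 0.58 and 0.68 in the Dgcr8 and Dicer knockouts, beside 0.11 and 0.10 over all genes. The members called higher in the Dgcr8 knockout were Cdh2, Cdh4, Cdh13, Cdh24, Cldn3, Cldn4, Dsp, Jup and Pcdh1. Those called higher in the Dicer knockout were Cdh2, Cdh4, Cdh13, Cldn3, Cldn4, Cldn5, Cldn7, Epcam, Dsp, Jup, Pkp1 and Pkp2. Both comparisons use the same WT library, so calls that recur are not independent, and a call in 1 knockout does not show that the knockouts differ. Of the members that entered, 3 of the 25 and 8 of the 28 reached 1 CPM in 1 of the libraries compared and not in the other, and entry of that kind favours a difference. They include the called Cdh2 and Cdh13 in both comparisons and Pkp1 in the Dicer knockout. Over all genes, 1394 of 13223 and 1584 of 13403 entered that way. In bulk RNA, fewer cells of a type and less RNA per cell cannot be told apart.

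**Figure D1:**
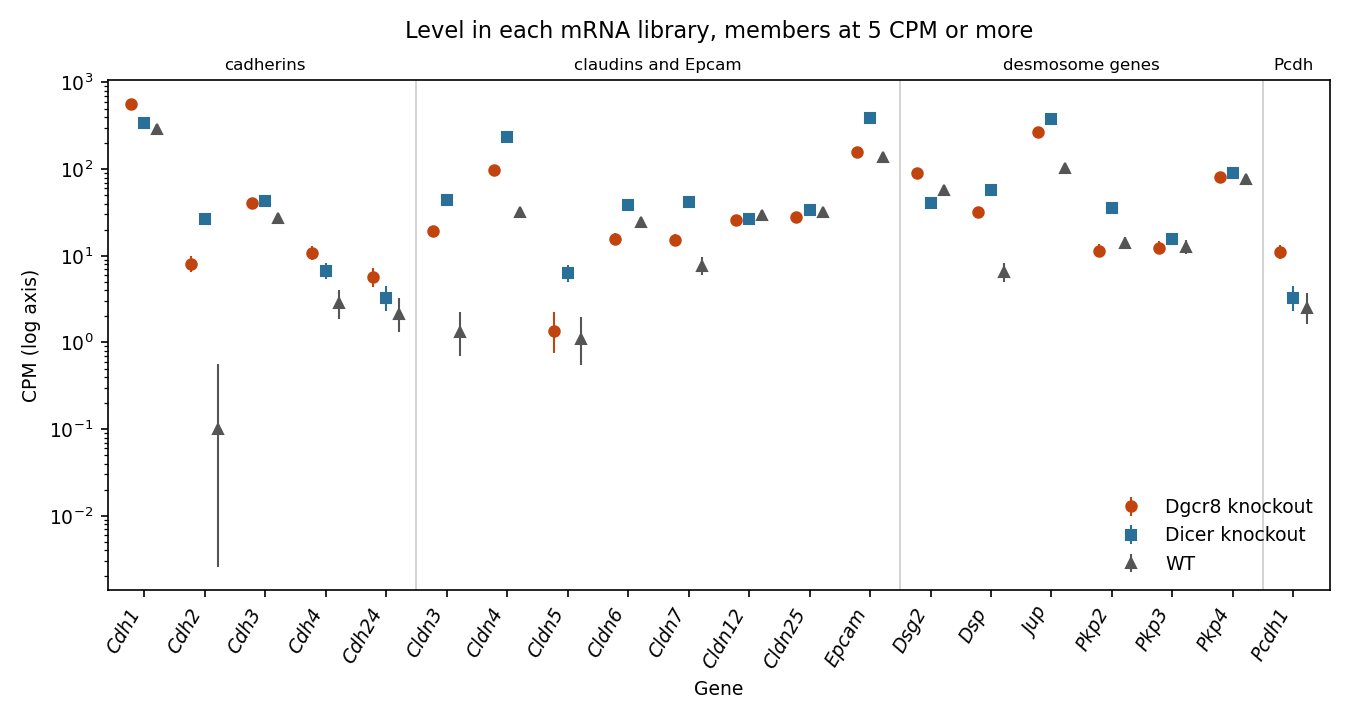
The level of each member outside the protocadherin clusters that reached 5 CPM in at least 1 library, on a log axis, with the Dgcr8 knockout, the Dicer knockout and WT from left to right and bars for the exact 95% Poisson interval of the count. Cdh2 stands at 8.09 and 26.5 CPM in the knockouts above 0.101 CPM in WT, while Cldn12, Cldn25 and Pkp4 lie at nearly the same height in all 3 libraries.

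Among the cadherins, N-cadherin stood furthest apart, and in neither knockout was E-cadherin lower than in WT. Cdh2, which encodes N-cadherin, had 90 counts in the Dgcr8 knockout, 326 in the Dicer knockout and 1 in WT. These are 8.09, 26.5 and 0.101 CPM. The ratio to WT was 80.4 (95% interval 14.1 to 3209) without Dgcr8 and 263 (46.9 to 10421) without Dicer. The single WT count leaves the size of both ratios open over more than an order of magnitude, but both libraries lie far above it. Cdh1, which encodes E-cadherin, had 564 CPM in the Dgcr8 knockout, 339 CPM in the Dicer knockout and 293 CPM in WT. The ratio to WT was 1.93 (1.84 to 2.01) in the Dgcr8 knockout and 1.16 (1.10 to 1.21) in the Dicer knockout, and neither was called at 2-fold.

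Cdh3, which encodes P-cadherin and has no protein-coding gene between it and Cdh1 in the RefSeq annotation of GRCm38.p6, had 41.1 CPM in the Dgcr8 knockout, 43.1 CPM in the Dicer knockout and 27.2 CPM in WT. Its ratios to WT of 1.51 (1.30 to 1.76) and 1.58 (1.37 to 1.84) were close to each other, unlike those of its neighbour Cdh1. Cdh4, the gene of R-cadherin, had 10.9 CPM in the Dgcr8 knockout, 6.74 CPM in the Dicer knockout and 2.82 CPM in WT, with ratios of 3.86 (2.54 to 6.05) and 2.39 (1.54 to 3.81). Its log2 ratio of 1.02 in the Dicer knockout became 0.93 with median-ratio scaling, which ends that call, as does TMM scaling at 0.94. Cdh24, a type II cadherin gene, had 5.66, 3.25 and 2.11 CPM in the same order and was called higher in the Dgcr8 knockout, at a ratio of 2.68 (1.61 to 4.62). That call was close to the threshold too, with a log2 ratio of 1.10 that became 0.99 with median-ratio scaling.

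The other cadherin genes were low. Cdh13, which encodes T-cadherin, a cadherin anchored by a lipid in place of a membrane-spanning part, had 27 counts in each knockout and an empty cell in WT, read as 0. With 3 counts set as the WT level, the Dgcr8 knockout was at least 8.04-fold higher and the Dicer knockout at least 7.26-fold higher. Cdh5, the vascular endothelial cadherin gene, had 4 and 5 counts in the Dgcr8 and Dicer knockouts and 11 in WT, and both intervals include 1. Cdh22 had 15, 10 and 11 counts in the same order. Cdh23, a gene of the inner ear hair cell links that is listed by a noncoding RefSeq entry (NR_045556), had 6, 10 and 1 counts and stayed under 1 CPM in every library.

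Cldn3, Cldn4, Cldn5, Cldn7 and Epcam were called higher in the Dicer knockout, Cldn3 and Cldn4 also in the Dgcr8 knockout, and the 5 other rows of claudins in neither. Cldn3, which encodes a sealing claudin of epithelia, had 19.3 CPM in the Dgcr8 knockout, 43.6 CPM in the Dicer knockout and 1.31 CPM in WT. The ratio to WT was 14.8 (8.45 to 28.2) in the Dgcr8 knockout and 33.3 (19.3 to 63.0) in the Dicer knockout. Its neighbour Cldn4, with no protein-coding gene between the pair in GRCm38.p6, had 96.5, 238 and 31.8 CPM, or ratios of 3.03 (2.67 to 3.45) and 7.47 (6.65 to 8.42). The order of the libraries was therefore the same for both neighbours, with the Dicer knockout highest and WT lowest. Cldn7, another epithelial claudin gene, followed that order too, with 15.2 CPM in the Dgcr8 knockout, 41.3 CPM in the Dicer knockout and 7.65 CPM in WT. Its ratio of 1.99 (1.51 to 2.64) in the Dgcr8 knockout falls just short of 2-fold, and that of 5.39 (4.23 to 6.96) in the Dicer knockout was called.

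Epcam, an adhesion molecule of epithelia and stem cells that binds claudin-7 in epithelial cells, had 159 CPM in the Dgcr8 knockout, 392 CPM in the Dicer knockout and 138 CPM in WT. Its ratio to WT was 1.15 (1.07 to 1.24) in the Dgcr8 knockout and 2.83 (2.67 to 3.01) in the Dicer knockout. Cldn5, best known from the blood-brain barrier, had 15, 77 and 11 counts in the same order and was called higher in the Dicer knockout, at 5.65 (2.99 to 11.8), with a ratio of 1.22 (0.523 to 2.93) in the Dgcr8 knockout. Both genes thus stood above WT in the Dicer knockout. In the Dgcr8 knockout Epcam stood near WT, while the counts of Cldn5 were too few to place it. Cldn6, a claudin gene of embryonic epithelium and stem cells, lay on both sides of WT, with 15.8 CPM in the Dgcr8 knockout, 38.6 CPM in the Dicer knockout and 24.5 CPM in WT. Cldn9, next to Cldn6 in GRCm38.p6 with no protein-coding gene between them, had 13 counts, 29 counts and 21 counts in the same order, too few to place either knockout apart from WT.

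Cldn12 had 25.9 CPM in the Dgcr8 knockout, 26.9 CPM in the Dicer knockout and 29.3 CPM in WT, and both ratios to WT have intervals that include 1, of 0.748 to 1.04 and 0.782 to 1.08. The row named Cldn25 had 28.0, 33.6 and 32.1 CPM and likewise spanned 1 in both. Its RefSeq entry (NM_171826) now carries the symbol Cldnd1, a protein with a claudin domain that is not one of the classical claudins. Cldn19, a claudin gene of the kidney and eye, was low, with 16 counts in the Dgcr8 knockout, 11 in the Dicer knockout and 20 in WT. Its ratio to WT in the Dicer knockout was 0.444, with an interval of 0.192 to 0.972 that ends close to 1. Cldn19 was not called, and with so few counts it is not taken as lower.

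Promoters of members that were higher together are shown for reading beside these values, from the RefSeq table of GRCm38.p6, as 300 bases that run from 250 before the start site to 50 after it, 5′ to 3′ on the strand of the gene. Capitals mark the E-box variant CAGGTG and its reverse complement CACCTG, which zinc-finger E-box factors such as ZEB1 and SNAI1 are known to bind. Cldn3 (chr5:134985964-134986263, plus strand), Cldn4 (chr5:134946885-134947184, minus strand), Epcam (chr17:87635729-87636028, plus strand) and Dsp (chr13:38151044-38151343, plus strand) are examples picked because they were called higher in the Dicer knockout and hold the motif, so the choice rests on both. Cldn7 meets the same conditions, with CACCTG starting at -97 and CAGGTG at -57 from the start site in its second listed window, and is not printed.
Cldn3: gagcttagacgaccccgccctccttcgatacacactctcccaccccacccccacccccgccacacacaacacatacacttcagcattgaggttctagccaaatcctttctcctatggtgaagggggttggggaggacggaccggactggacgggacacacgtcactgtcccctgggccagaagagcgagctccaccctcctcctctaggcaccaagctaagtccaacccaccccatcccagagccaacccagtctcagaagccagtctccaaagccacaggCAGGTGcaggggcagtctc
Cldn4: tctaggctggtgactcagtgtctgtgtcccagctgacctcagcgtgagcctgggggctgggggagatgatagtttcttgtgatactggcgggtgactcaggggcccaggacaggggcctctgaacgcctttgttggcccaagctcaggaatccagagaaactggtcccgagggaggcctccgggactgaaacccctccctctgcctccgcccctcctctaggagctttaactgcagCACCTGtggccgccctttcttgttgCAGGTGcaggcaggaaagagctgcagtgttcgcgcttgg
Epcam: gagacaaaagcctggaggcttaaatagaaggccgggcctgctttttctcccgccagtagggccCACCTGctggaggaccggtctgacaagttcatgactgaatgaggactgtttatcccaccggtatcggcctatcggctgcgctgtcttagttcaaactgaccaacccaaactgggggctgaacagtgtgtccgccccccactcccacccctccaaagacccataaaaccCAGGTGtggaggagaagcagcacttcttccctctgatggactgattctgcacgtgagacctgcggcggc
Dsp: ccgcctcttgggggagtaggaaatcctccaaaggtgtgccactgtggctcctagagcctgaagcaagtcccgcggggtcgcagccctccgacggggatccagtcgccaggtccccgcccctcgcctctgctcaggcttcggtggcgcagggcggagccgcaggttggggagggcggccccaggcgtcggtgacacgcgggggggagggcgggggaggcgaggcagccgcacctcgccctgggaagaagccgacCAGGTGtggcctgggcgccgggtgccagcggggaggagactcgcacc

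Counting from the start base as 0, the motif begins at position 31 in Cldn3, at -14 and 11 in Cldn4, at -187 and -19 in Epcam and at 3 in Dsp. The table held promoters for 16 member genes off chromosome 18, matched by symbol, and 7 of them had the motif in at least 1 of their windows (Cldn3, Cldn4, Cldn6, Cldn7, Dsp, Epcam and Pkp4). By window, that is 7 of 21, or 33.3%, beside 20.2% of all 32851 windows. By gene, 22.6% of all 27025 genes held it in at least 1 window. Of the 7 genes with a promoter in the table that were called higher in the Dicer knockout, 5 held it and Jup and Cldn5 did not, and of the 9 others 2 held it. Members off chromosome 18 without a promoter there include Cdh1, Cdh3 and the called Cdh4, Cdh13, Pkp1 and Pkp2. A link between motif and call was not tested. A match describes letters in these windows and is not evidence of a bound site.

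The desmosome genes were uneven. The plaque genes Dsp and Jup were called higher in both knockouts, Pkp1 and Pkp2 in the Dicer knockout, and Pkp3, Pkp4 and the desmosomal cadherin genes in neither. Dsp, whose product desmoplakin links the desmosome to intermediate filaments, had 32.1 CPM in the Dgcr8 knockout, 57.8 CPM in the Dicer knockout and 6.54 CPM in WT. The ratios to WT were 4.90 (3.76 to 6.49) and 8.83 (6.84 to 11.6). Jup, the gene of plakoglobin, which serves desmosomes and cadherin-catenin complexes alike, had 269, 380 and 103 CPM in the same order, with ratios of 2.61 (2.43 to 2.80) and 3.68 (3.44 to 3.95). Both genes share the order of Cldn3, Cldn4 and Cldn7, highest without Dicer and lowest in WT.

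Pkp2, a plakophilin gene of simple epithelia and heart, had 11.5 CPM in the Dgcr8 knockout, 35.3 CPM in the Dicer knockout and 14.1 CPM in WT. It was called higher in the Dicer knockout, at 2.51 (2.07 to 3.06), while its interval in the Dgcr8 knockout, 0.637 to 1.04, includes 1. Pkp3 had 12.4, 15.6 and 12.7 CPM and Pkp4, whose product also sits at classical cadherin junctions, had 81.5, 89.4 and 77.5 CPM. Neither was called in any comparison. Pkp1, a plakophilin gene of stratified epithelia, had 2 counts in the Dgcr8 knockout, 23 in the Dicer knockout and 0 in WT. With 3 counts set as the WT level, its ratio in the Dicer knockout would be 6.19, without the counting error of the knockout.

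Dsg2 had 89.4 CPM in the Dgcr8 knockout, 40.5 CPM in the Dicer knockout and 57.3 CPM in WT. The ratio to WT was 1.56 (1.41 to 1.73) in the Dgcr8 knockout and 0.706 (0.625 to 0.798) in the Dicer knockout, so the knockouts lay on opposite sides of WT, neither at 2-fold. Dsc2, its desmocollin partner, had 6, 24 and 8 counts in the same order. Low as it was, Dsc2 stood higher in the Dicer knockout than in the Dgcr8 knockout, while Dsg2 stood lower in the Dicer knockout.

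**Figure D2:**
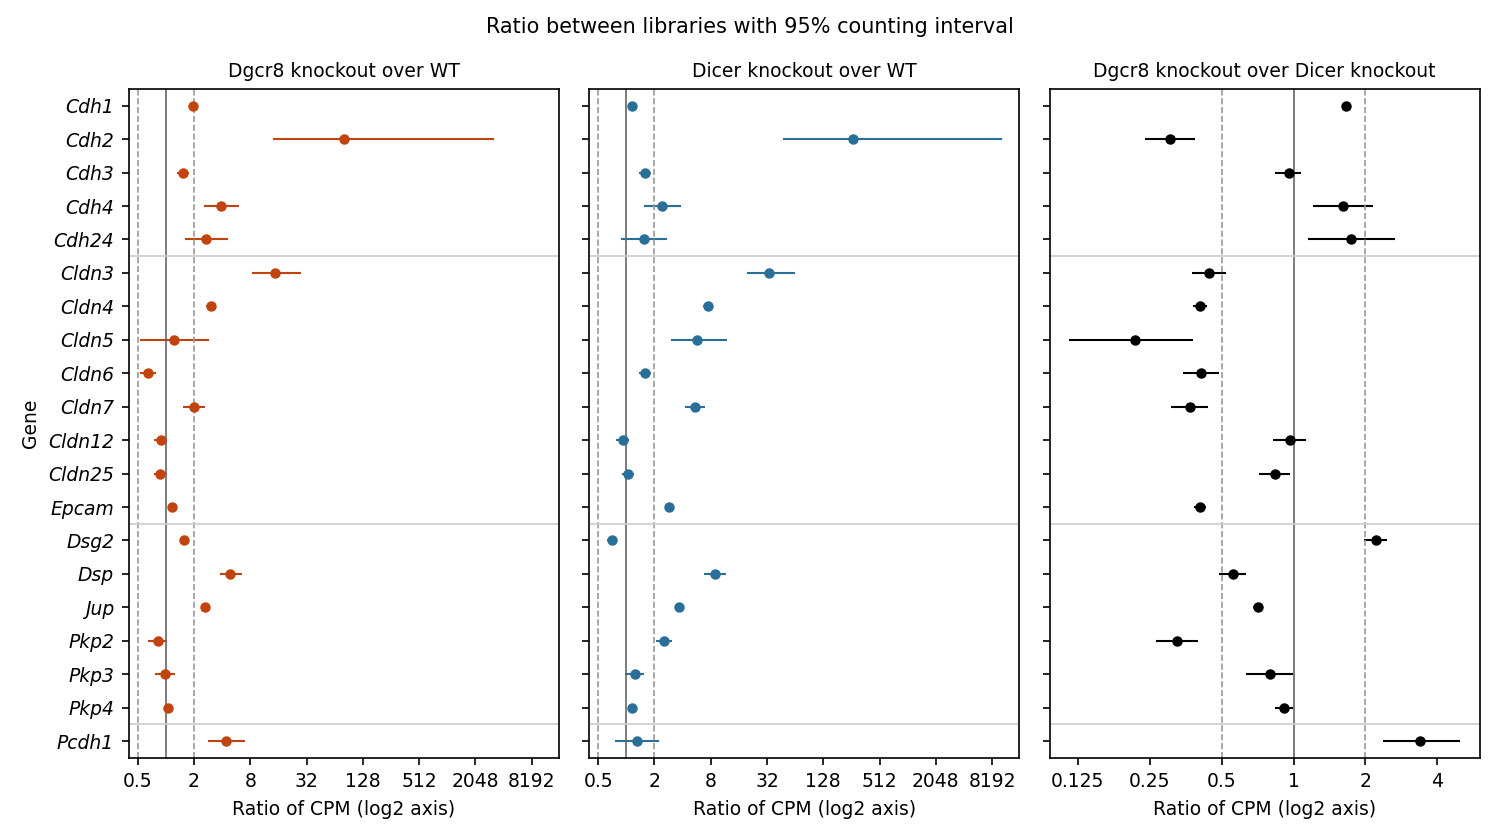
Ratio of CPM for the same members on log2 axes, with 95% counting intervals, a solid line at 1 and dashed lines at 2-fold; the third panel has its own scale. In that panel Cldn3, Cldn4, Cldn5, Cldn6, Cldn7 and Epcam lie below the dashed line at 0.5, while Dsg2 at 2.21 and Pcdh1 at 3.40 lie above 2-fold.

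Set against each other, the knockouts can be compared without WT. Of 27 members outside the protocadherin clusters that entered, 9 were called lower in the Dgcr8 knockout than in the Dicer knockout and 2 higher, where 5.05% of 12986 genes were called lower and 4.15% higher, or 9.20% in either direction. Their median log2 ratio was -0.31, beside 0.00 over all genes. The lower ones were Cdh2, Cldn3, Cldn4, Cldn5, Cldn6, Cldn7, Epcam, Pkp1 and Pkp2. Of the 27, 5 reached 1 CPM in 1 library and not in the other, among them Pkp1 with 2 and 23 counts. Of the 10 rows of claudins and Epcam, 6 were lower and 0 higher, and the median log2 ratio was -1.18.

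Most claudins called lower, and Epcam, had similar ratios in this comparison, but those ratios are also what chose them under the 2-fold rule. The claudin rows not called had ratios of 0.496 (Cldn9), 0.834 (Cldn25), 0.963 (Cldn12) and 1.61 (Cldn19). Cldn3 was 2.26-fold lower in the Dgcr8 knockout (1.92 to 2.66), Cldn4 2.46-fold (2.30 to 2.65), Cldn7 2.72-fold (2.28 to 3.25), Cldn6 2.44-fold (2.05 to 2.92) and Epcam 2.46-fold (2.33 to 2.60). Cldn5, also called lower, lay further off, at 4.64-fold (2.65 to 8.69). The 2-fold rule limits how far called ratios can spread toward 1, so their likeness is not set against the spread of the ratios to WT. For Cldn3 the ratio to WT rests on 13 WT counts. Cdh2 was 3.27-fold lower in the Dgcr8 knockout (2.58 to 4.18), here from 90 and 326 counts and without the single WT count. Pkp2 was 3.07-fold lower (2.52 to 3.77).

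The genes on the other side were a mixture. Dsg2 was 2.21-fold higher in the Dgcr8 knockout (1.98 to 2.46). Pcdh1, a protocadherin gene outside the clusters that is known from airway epithelium, had 11.1 CPM in the Dgcr8 knockout, 3.25 CPM in the Dicer knockout and 2.52 CPM in WT. It was 3.40-fold higher in the Dgcr8 than in the Dicer knockout (2.36 to 4.99) and 4.39-fold higher than in WT (2.84 to 7.05). Cdh1 was 1.66-fold higher in the Dgcr8 than in the Dicer knockout (1.60 to 1.73), under the threshold, so E-cadherin and N-cadherin were each highest in a different knockout. Pcdh19 had 10, 13 and 2 counts in the Dgcr8 knockout, the Dicer knockout and WT.

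The alpha and gamma protocadherins are built unlike the other members. Each isoform joins its own variable exon to constant exons that all isoforms of its cluster share, and single neurons choose among the variable exons. The 22 gamma rows held nearly equal counts within each library, from 645 to 745 in the Dgcr8 knockout, from 732 to 820 in the Dicer knockout and from 528 to 551 in WT. How reads of the shared exons were counted is not given in the sources, and the rows are not taken here as 22 separate measurements. All 22 entered both comparisons with WT and none was called, with log2 ratios from 0.10 to 0.27 in the Dgcr8 knockout and from 0.15 to 0.26 in the Dicer knockout. With all 66 rows the median log2 ratio of the members is 0.14 without Dgcr8 and 0.19 without Dicer, close to that of these rows, and with median-ratio scaling the sign of many gamma rows in the Dgcr8 knockout over WT flips.

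The lowest gamma row of each library gives an upper limit for the counts that all rows share. Its ratio to WT was 1.09 (0.971 to 1.23) in the Dgcr8 knockout and 1.12 (0.999 to 1.25) in the Dicer knockout, both with 1 inside the interval. What a row holds above that lowest row is then a lower limit for reads of its own, if the shared part is the same in every row. For Pcdhgc3, a C-type isoform at the end of the cluster, the counts above the lowest row were 100 in the Dgcr8 knockout, 88 in the Dicer knockout and 23 in WT. These are 8.99, 7.15 and 2.32 CPM, and the whole row had ratios to WT of 1.21 (1.08 to 1.35) and 1.20 (1.08 to 1.34). A ratio of such lower limits is neither the ratio of the isoform nor a bound on it, and none is given.

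The other gamma rows held fewer counts above the lowest. Pcdhgb7 had 25, 35 and 9 in the Dgcr8 knockout, the Dicer knockout and WT, and Pcdhga1 had 18, 25 and 6. Summed over the 22 rows, counts above the lowest row were 291 in the Dgcr8 knockout, 308 in the Dicer knockout and 100 in WT. These are counts, not scaled to the library totals. Several rows departed from the order of the sums, among them Pcdhgc3, Pcdhga4 with 5, 18 and 12, Pcdhga7 with 14, 4 and 0, and Pcdhgc4 with 0, 1 and 4. The measure, and the rows named for it, were chosen after the counts were seen.

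**Figure D3:**
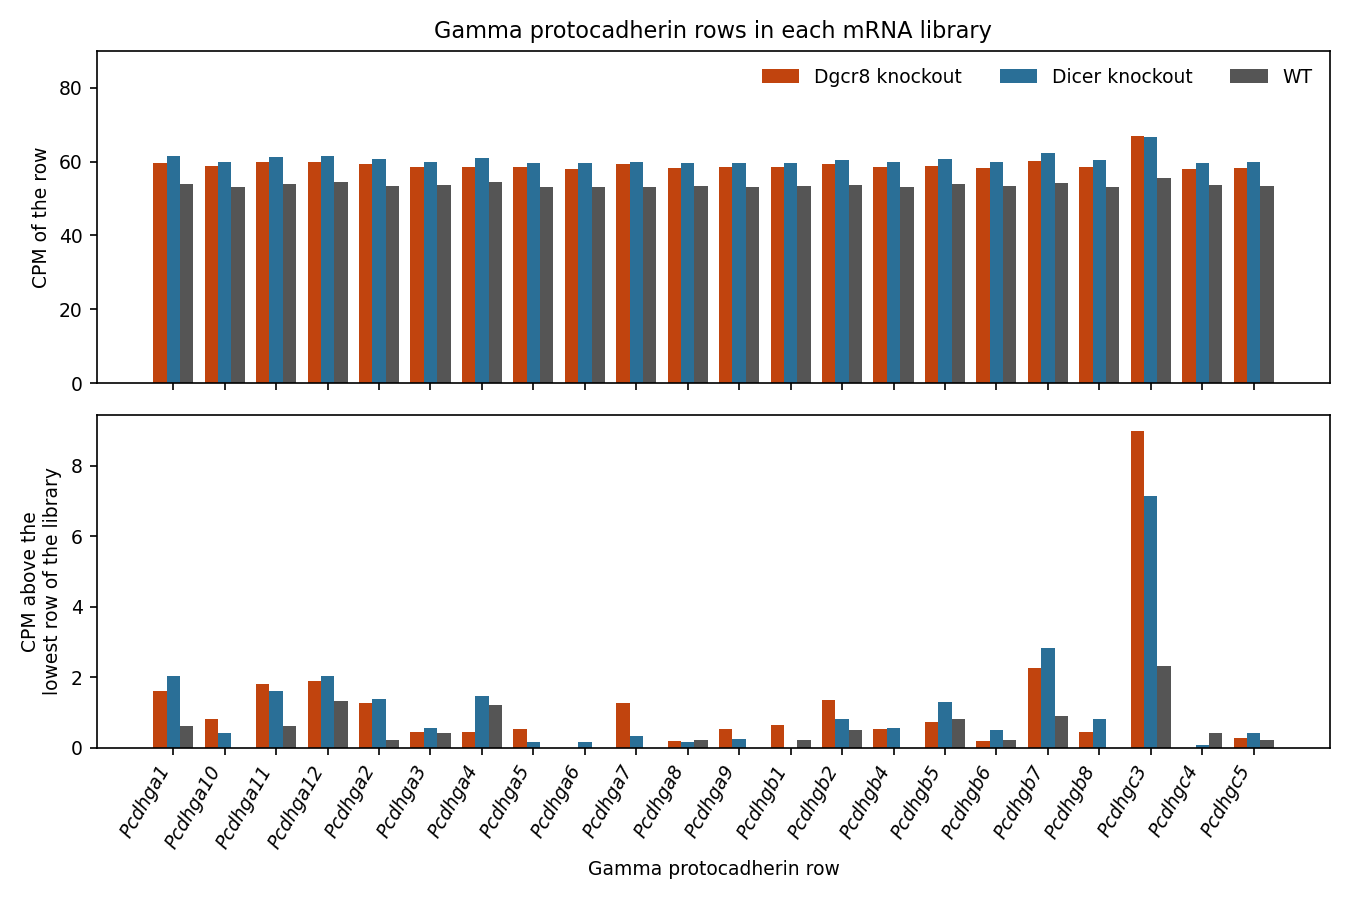
The 22 gamma protocadherin rows, with bars for the Dgcr8 knockout, the Dicer knockout and WT from left to right: CPM of the whole row above, and CPM in excess of the lowest row of the same library below. The upper bars run from 53.2 to 67.0 CPM, and in the lower panel Pcdhgc3 reaches 8.99 and 7.15 CPM in the knockouts and 2.32 CPM in WT.

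The 14 alpha rows were near the limit of detection, with 6 to 8 counts in the Dgcr8 knockout, 12 to 14 in the Dicer knockout and 4 in WT. Of these rows, 13 had exactly the counts of another alpha row in all 3 libraries, and only Pcdha12 reached 1 CPM, in the Dicer knockout. The read-through row Pcdha4-g (NM_001174154, now Gm37013) had 84 counts in the Dgcr8 knockout, 82 in the Dicer knockout and 35 in WT, with ratios to WT of 2.14 (1.43 to 3.28) and 1.89 (1.26 to 2.89). It was not called on the log2(CPM + 1) scale.

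Genes that work beside the members were counted from lists, to be read against the 14.3% of all genes called higher and 8.02% called lower in the Dgcr8 knockout, and the 16.0% and 9.70% in the Dicer knockout. Of 11 catenins and cadherin partners, 4 were called higher and 0 lower in the Dgcr8 knockout, and 3 higher and 1 lower in the Dicer knockout. The core catenin genes stayed within 2-fold of WT: Ctnnb1 was at log2 ratios of 0.14 and 0.20 in the Dgcr8 and Dicer knockouts, Ctnna1 at -0.34 and -0.40, and Ctnnd1 (p120-catenin) at 0.72 and 0.90. Ctnnd2, a p120 relative of neural tissue, had 79, 135 and 1 counts in the Dgcr8 knockout, the Dicer knockout and WT, and Plekha7, whose product binds p120, had 82.4, 63.8 and 25.2 CPM. The nectin genes diverged, with Pvrl3 at log2 ratios of 1.17 and 2.20 in the Dgcr8 and Dicer knockouts and Pvrl1 at -0.90 and -1.78.

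Of 20 tight junction genes other than claudins, 5 were called higher and 1 lower in the Dgcr8 knockout, and 8 higher and 1 lower in the Dicer knockout. The tricellulin gene Marveld2 had 71, 79 and 5 counts in the Dgcr8 knockout, the Dicer knockout and WT. The scaffold gene Tjp3 had 16.2, 22.2 and 3.83 CPM in the same order. Occludin (Ocln) and the polarity gene Crb3 resembled Cldn7, with 4.49, 10.8 and 2.52 CPM and 3.96, 13.5 and 2.01 CPM. Tjp1 was at 0.80 and 0.74 on the log2 scale and was not called. Of genes of cadherin shedding and trafficking, Adam17 alone was called, at log2 ratios of 1.15 in the Dgcr8 knockout (1 of 6 tested) and 1.29 in the Dicer knockout (1 of 7 tested), shares near those of all genes.

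Among regulators of the epithelial-mesenchymal transition and of epithelial splicing, 4 of 13 were called higher and 2 lower in the Dgcr8 knockout, and 9 of 14 higher and 1 lower in the Dicer knockout. Factors of opposite known action stood higher together. Zeb1, a repressor of E-cadherin, had 28.0 CPM in the Dgcr8 knockout, 21.0 CPM in the Dicer knockout and 7.15 CPM in WT. Esrp1, an epithelial splicing factor gene, had 22.7, 63.4 and 10.3 CPM, Esrp2 had 11.1, 11.5 and 1.81 CPM, and Grhl2, an epithelial transcription factor gene, had 15.3, 38.0 and 9.06 CPM. Snai1, another repressor of E-cadherin, was lower in both knockouts, with 6.65 and 5.52 CPM in the Dgcr8 and Dicer knockouts and 19.0 CPM in WT. Zeb2 had 2, 25 and 4 counts in the Dgcr8 knockout, the Dicer knockout and WT.

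Other epithelial genes gave 6 of 12 called higher and 0 lower in each knockout. The membrane protease gene Prss8 had 22.7 CPM in the Dgcr8 knockout, 73.1 CPM in the Dicer knockout and 2.11 CPM in WT, and its partner St14 had 194, 229 and 74.9 CPM. Mesenchymal genes gave 3 of 10 higher and 2 lower in the Dgcr8 knockout and 4 of 10 higher and 1 lower in the Dicer knockout. Tagln, a smooth muscle actin-binding gene, was at log2 ratios of 1.68 and 1.74 in the Dgcr8 and Dicer knockouts. Vim had 562 CPM in the Dgcr8 knockout, 338 CPM in the Dicer knockout and 77.1 CPM in WT, and Thbs1 had 21, 276 and 2 counts. Tgfb1 went the other way and was called lower in both, at log2 ratios of -1.45 and -2.23.

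**Figure D4:**
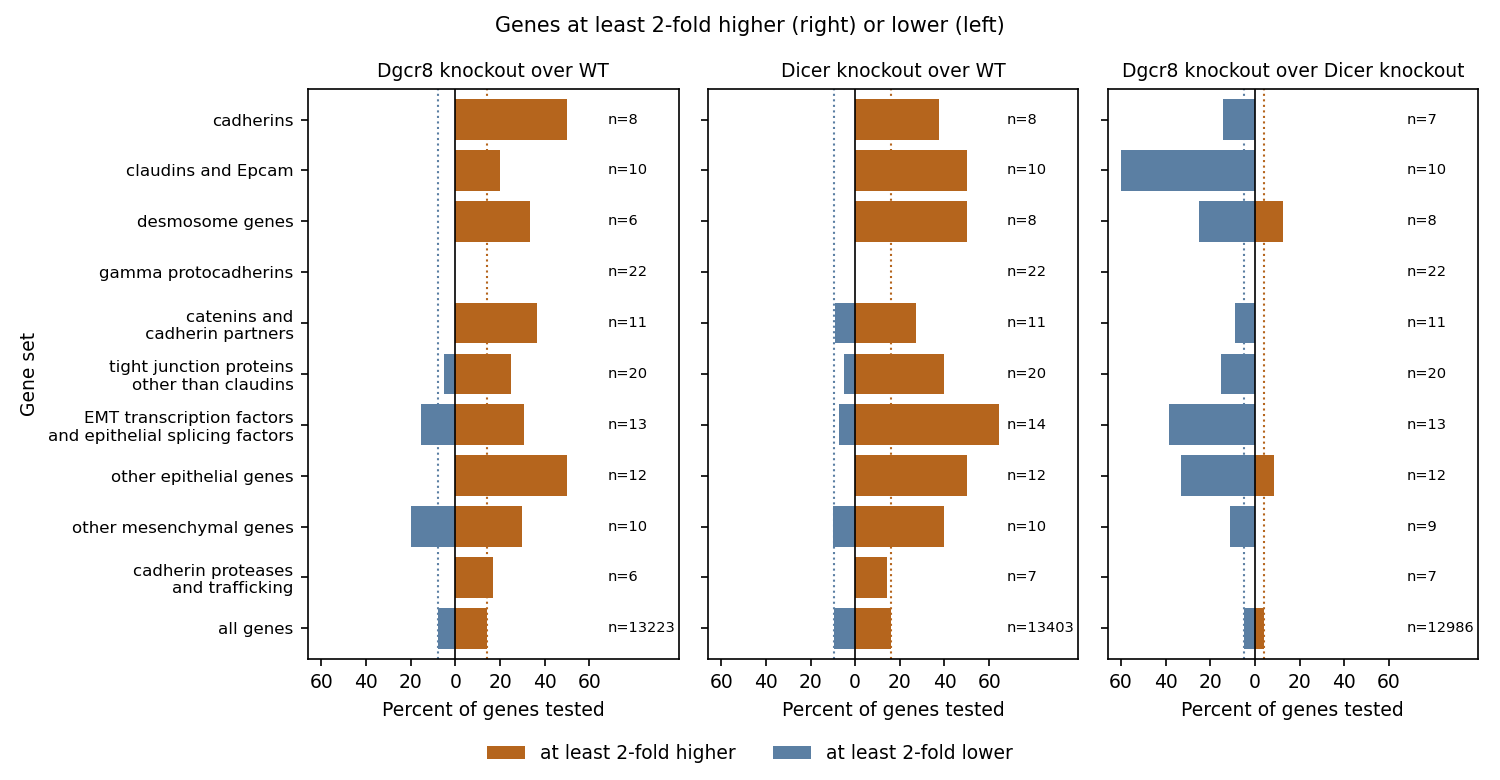
Share of the genes tested in each set that was at least 2-fold higher (right of 0) or lower (left of 0), with the number tested as n and dotted lines at the shares of all genes. Claudins and Epcam have 6 of 10 lower in the Dgcr8 than in the Dicer knockout, and the 22 gamma protocadherin rows, which share exons, have 0 called in any comparison.

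Markers of other cell types moved with the genotypes, and their part in the results was not tested. Fibroblast and stromal markers, with 4 of 10 listed genes measured, summed to 11.4 CPM in the Dgcr8 knockout, 2.76 CPM in the Dicer knockout and 43.4 CPM in WT. Trophectoderm markers (6 of 8 measured) summed to 94.2, 119 and 36.5 CPM, neural markers (8 of 10) to 274, 292 and 159 CPM, and endoderm markers (6 of 9) to 8.99, 7.88 and 17.4 CPM in the same order. Trophectoderm is an epithelium that expresses E-cadherin and several claudins. Of its markers, Tfap2c had 55.1, 86.4 and 18.3 CPM and Gata3 had 4, 19 and 0 counts. Eomes went the other way with 5.03, 5.28 and 10.2 CPM. Cdx2 and Elf5 had no row under these symbols, so their levels are not known here. Of the endoderm markers, Hnf4a had 9.97 CPM in WT and was listed at 0 in both knockouts. Gata4 went against the sum with 7.73 CPM in the Dgcr8 knockout, 6.09 CPM in the Dicer knockout and 1.51 CPM in WT. The uncalled Tubb3 was the largest part of the neural sum, at 167 CPM without Dgcr8, 129 CPM without Dicer and 126 CPM in WT. Called higher than in WT were 5 of 8 neural markers without Dgcr8 and 7 of 8 without Dicer, with 0 lower. The median log2 ratios of all 8 were 1.33 and 2.07. Pax6 had 66 counts without Dgcr8, 189 without Dicer and 2 in WT. Map2 and Neurod1 were called without Dicer only.

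The WT small RNA library gives the level of miRNAs that depend on DGCR8 and Dicer and are known to act on Zeb1, Zeb2 or E-cadherin. The miR-200 family, which represses Zeb1 and Zeb2, is shown with its seed (bases 2 to 8) in capitals, from the RefSeq table of GRCm38.p6, because its members fall into groups with different seeds.
miR-200b-3p: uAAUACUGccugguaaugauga
miR-200c-3p: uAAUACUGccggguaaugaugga
miR-429-3p: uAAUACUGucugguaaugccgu
miR-200a-3p: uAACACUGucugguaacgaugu
miR-141-3p: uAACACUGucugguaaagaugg

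Among 2594949 reads of 707 mature miRNAs, miR-429-3p had 7107 reads, or 2739 per 1000000 reads (RPM), with an exact Clopper-Pearson 95% interval of 2676 to 2803. The others with its seed AAUACUG were lower, with miR-200b-3p at 175 RPM (159 to 192) and miR-200c-3p at 69.4 (59.6 to 80.3). With the seed AACACUG, miR-200a-3p stood at 354 RPM (332 to 378) and miR-141-3p at 78.2 (67.8 to 89.8). MiR-9-5p, reported to act on E-cadherin in human cells, was at 302 RPM and miR-205-5p at 18.9 RPM. No small RNA library of the knockouts was analysed here, so these levels describe WT cells and were not compared.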

How the data were processed

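Counts per RefSeq transcript entry (mRNA) and counts per mature miRNA were used as the authors deposited them. Per the labels' protocols, the mRNA libraries were made from polyadenylated RNA with a stranded kit. The submitters' processing notes name Bowtie and the build mm9, while the counter, the annotation and strand use were not given in the sources used here. Empty cells were read as 0. Of the low counts (2 to 9), 69.6% to 74.8% were even. If each fragment was counted once per mate, the counting intervals are too narrow. Every row reaches 10 counts in at least 1 library. Columns were matched to samples by name.

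CPM were computed from the column totals, with the pseudocount of 1, the floor of 1 CPM and the 2-fold rule given in the report. With 1 library per group, edgeR's test could not be fitted. Ratio intervals are exact conditional binomial and cover counting error only. The steps were checked on simulated counts. Every member at 5 CPM or more in at least 1 library is named, gamma rows by range, and at most 4 genes per companion list with the largest change, plus some fixed ones. Members, lists and alternatives were chosen with earlier results of these data known. Symbols were matched to RefSeq genes of GRCm38.p6, 65 members by accession and 1 by symbol. Alternatives changed the pseudocount, floor, scaling (median-ratio, and TMM from edgeR 4.0.16 in R 4.3.3), size rule and treatment of rows. The planned comparison of claudin protein sequences was not run. Python 3.11.15, numpy, pandas and scipy 1.17.1 were used.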

Additional observations from a re-analysis of the deposited data

Results flagged for a closer look

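For 2 members the 95% counting intervals of the knockouts over WT lay on opposite sides of 1. Cldn6 had a ratio to WT of 0.647 (0.530 to 0.788) in the Dgcr8 knockout and 1.58 (1.35 to 1.85) in the Dicer knockout. Dsg2 had a ratio to WT of 1.56 (1.41 to 1.73) in the Dgcr8 knockout and 0.706 (0.625 to 0.798) in the Dicer knockout. The opposite sides were kept with counts halved. With 1 library per genotype, the difference between the knockouts' effects was not tested.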

How the results depend on the processing

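No paired analysis was possible because each group has 1 library, and no library could be left out. Over the 66 rows, 9 members were called higher without Dgcr8 and 12 without Dicer, and 9 lower and 2 higher in the Dgcr8 over the Dicer knockout. With a pseudocount of 0.1, 1 member was called lower than in WT without Dgcr8 and 2 without Dicer, against 0 with a pseudocount of 1, and a pseudocount of 5 left 1 higher in the Dgcr8 over the Dicer knockout. The 1.5-fold rule gave 2 and 1 lower than in WT and 5 higher between the knockouts. The 4-fold rule gave 3 and 5 higher than in WT and 0 in either direction between the knockouts. The median log2 ratio over WT became 0.01 and 0.08 with median-ratio scaling and 0.03 and 0.08 with TMM, which moved the median of all genes by -0.13 and -0.11, and by -0.11 and -0.10. Among all calls of the Dgcr8 knockout over WT, genes higher made up 53.6% with median-ratio scaling and 55.4% with TMM, instead of 64.1%. The gamma protocadherins had log2 ratios near 0, and several changed sign under these scalings. Without a floor the Dicer median was 0.36. Without the clustered protocadherins the medians were 0.58 and 0.68 over WT and -0.31 between the knockouts. With each cluster as 1 gene, chosen after seeing the data, they were 0.58, 0.68 and -0.25. With counts halved, 22 of 129 intervals of named members came to include 1, 18 of them gamma rows. Depth limits the alpha rows and ratios that rest on few WT counts, such as that of Cdh2.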
